A study of Homo sapiens with 12 samples.

Results

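The genes described here are 42 human genes of DNA repair that work outside homologous recombination, out of 61552 genes listed in each count table. They were taken by symbol from a list drawn up with earlier results of these data known, and sorted by repair route. The list holds 12 genes of nucleotide excision repair, 14 of base excision repair, 9 of classical end joining, 5 of mismatch repair, POLQ for theta-mediated joining and MGMT for direct reversal. All 42 passed the filter on low counts, as did 18121 genes in all. RNA was sequenced from HCC38 and MDA-MB-231, established human cell lines of triple-negative breast cancer, a tumour type defined by low oestrogen, progesterone and HER2 receptors. Both lines carried the label WT. HCC38 cells were kept in RPMI-1640 and MDA-MB-231 cells in low-glucose DMEM, so a difference between the lines and a difference between the media cannot be told apart. Cells of each line were left untreated or received interferon-β, a type I interferon, at 400 IU/mL for 48 h, and each of the 4 groups has 3 libraries. The labels name these biological replicates without saying what separated them, so the p-values measure the spread between libraries, some of which may be technical.

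Nucleotide excision repair cuts out a short strand around bulky lesions, such as those made by ultraviolet light, after recognition either anywhere in the genome or at a stalled RNA polymerase. Base excision repair removes single damaged bases with glycosylases and then cuts, refills and seals the strand, while mismatch repair removes errors left behind by replication. Classical end joining rejoins broken ends held by the Ku heterodimer, and polymerase theta joins resected ends through short matching sequences. MGMT reverses alkylation of guanine directly and is known in oncology for protecting tumour cells from alkylating drugs.

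Total counts per library ran from 26660038 to 43588773, and the 42 repair genes together took 98023 to 172625 of them. The MDA-MB-231 libraries fell into 2 sets by the numbers in the deposited names, which differ from the replicate numbers of the titles. The first set holds untreated replicates 1 and 2 and interferon-β replicate 1, and the second holds untreated replicate 3 and interferon-β replicates 2 and 3. Libraries of one group in different sets differed by a chi-square statistic of 42.4 to 62.3 per degree of freedom, against 4.10 to 14.1 for other pairs of replicates. Every fold change below therefore comes from a fit with a term for the set. Levels are given as CPM, the reads of a gene scaled to a common library size after correction by the TMM scaling factor. The treatment showed in its usual target genes. The mean CPM of MX1, an antiviral GTPase, went from 256 to 889 in HCC38 and from 2.99 to 346 in MDA-MB-231. OAS1, ISG15 and IFIT1 were higher in both lines as well. Of the receptors that define the tumour type, PGR had 0 counts in MDA-MB-231, and mean ERBB2 was 163 CPM in untreated HCC38 and 63.3 in untreated MDA-MB-231. Of 9 leukocyte markers, MS4A1 was among those at 0 in every library, and the summed level of all 9 was 0.315 to 6.31 CPM. The 9 markers of fibroblasts and endothelium summed to 2511 to 3423 CPM in HCC38 and 16.3 to 38.0 CPM in MDA-MB-231. In untreated HCC38 this was mostly COL1A1 (mean 2626 CPM), with COL1A2 at 270 and COL3A1 at 176. DCN, LUM, PECAM1, VWF and CDH5 had means of 0.0318 to 1.49 CPM there. PDGFRB (5.62 against 6.88 CPM), VWF (0.117 against 0.352) and CDH5 (0.0318 against 0.190) had higher means in untreated MDA-MB-231. The 4 epithelial markers summed to 1803 to 2014 CPM in HCC38 and 738 to 862 CPM in MDA-MB-231. The part of these markers in the differences between the lines was not tested.

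Interferon-β moved few of the repair genes in HCC38 and more of them, mostly downward, in MDA-MB-231. In HCC38, 3 genes rose (POLQ, NEIL3 and DCLRE1C) and 1 fell (NEIL1) at an edgeR adjusted p under 0.05. These are 4 of 42, a share close to the 10.6% called among all genes tested (5.81% higher and 4.75% lower). In MDA-MB-231, 2 rose (POLQ and SMUG1) and 12 fell: NHEJ1, MSH3, XRCC5, PMS1, DDB1, UNG, LIG3, MSH6, XRCC6, MLH3, DCLRE1C and APEX1. Here the background was 22.6% called, 11.6% higher and 11.0% lower. The response differed between the lines for 8 genes, against a background of 12.2% (5.77% positive and 6.47% negative): it was more positive in MDA-MB-231 for NEIL1 and more negative for MSH3, DCLRE1C, XRCC5, PMS1, MSH6, MLH3 and XRCC6. Of the 42, POLQ alone rose in both lines and DCLRE1C alone was called in opposite directions, beside 431 and 142 of the 18121 genes tested. The median log2 fold change of the 42 genes was 0.00057 in HCC38 and -0.070 in MDA-MB-231, beside -0.0043 and 0.0088 over all genes tested. With library totals as the scaling the MDA-MB-231 median turned to 0.0035, beside 0.094 for all genes. In bulk RNA, fewer cells of a kind and less RNA per cell cannot be told apart.

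Most MDA-MB-231 calls were lost without untreated replicate 3, the one untreated library of the second set. Of the 14 calls 2 were left (DDB1 and XRCC5), and of the 8 differences between the responses 1 (MSH6). Over all genes tested, leaving out 1 library took the MDA-MB-231 calls from 4095 to as few as 1177. Without untreated replicate 3 the second set has no untreated library, so the fitted response comes from the first set alone. Leaving it out and fitting within the first set are therefore not separate checks. Neither can tell whether that library is unusual. Within the first set 2 of the 14 passed the test and within the second set 11, and of the 8 differences 1 and 7 passed. Each set has 1 library in one arm, untreated replicate 3 in the second, so the passes there rest on that library too, and the lone library is assumed to vary like the groups that have more than 1. Without the term for the sets, 0 repair genes were called in HCC38 by edgeR (9 passed before adjustment, 3 of them higher; with the term, DESeq2 called 5 and limma on FPKM called 1), 9 in MDA-MB-231 and 1 difference.

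**Figure D1:**
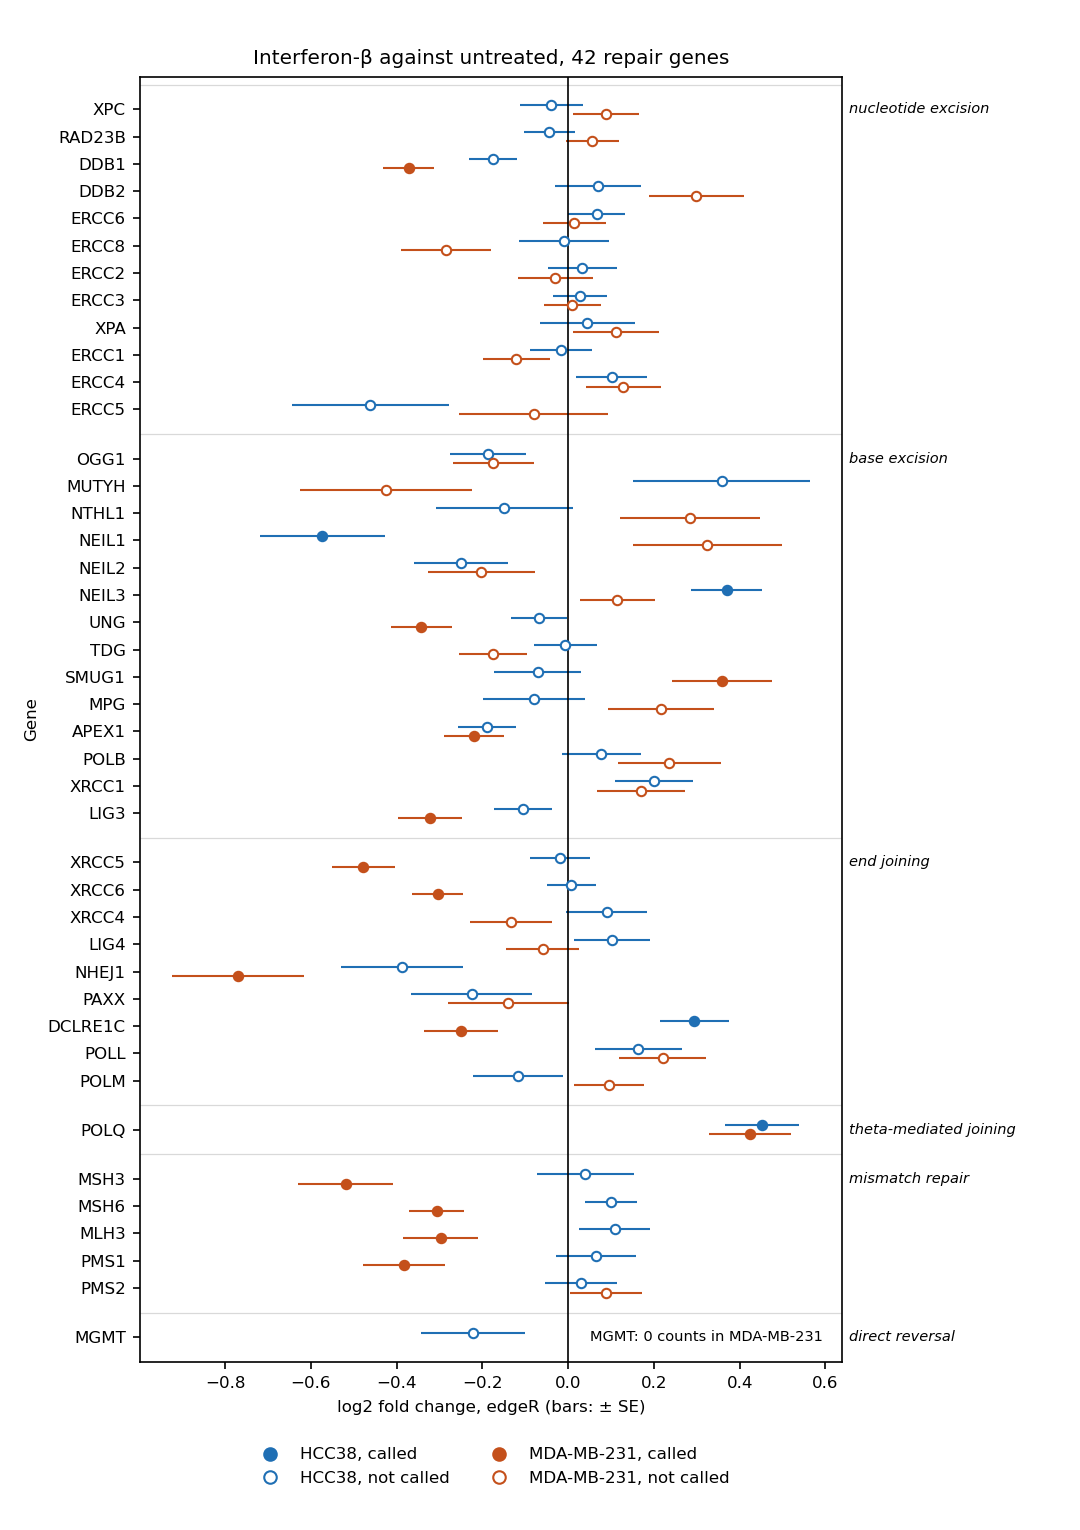
Log2 fold change of each repair gene after interferon-β (x axis, edgeR estimate, bars ± SE), by repair route, for HCC38 (blue) and MDA-MB-231 (orange), with filled points for genes called at an adjusted p under 0.05. POLQ is filled to the right of 0 in both lines, and 12 genes are filled to the left of 0 in MDA-MB-231; MGMT is shown for HCC38 alone because it had 0 counts in MDA-MB-231.

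Between the lines themselves, most repair genes differed, as most genes did. In untreated cells 17 of 42 were higher in MDA-MB-231 and 18 lower, with 79.8% of all genes tested called, 38.4% higher and 41.4% lower. After interferon-β 14 were higher and 22 lower, with 79.4% of all genes called, 38.8% higher and 40.6% lower. Of the 42, 12 were higher and 18 lower under both conditions, as were 6165 and 6593 of the 18121 genes tested, a similar share. Among the 42, the routes split: 8 of 14 base excision genes were lower and 2 higher in untreated MDA-MB-231, with a median log2 difference of -0.75. In end joining, 6 of 9 genes were higher and 1 lower, with a median of 0.54. Over all genes tested the median was -0.05. Related genes of a second list, described below, did not split in this way. Nucleotide excision genes were divided, 5 higher and 6 lower, and 4 of 5 mismatch repair genes were higher in untreated MDA-MB-231 and 1 lower, with a median of 0.60. In treated cells 2 mismatch repair genes were higher and 2 lower, with a median of 0.19, and 5 end joining genes were higher and 3 lower, with a median of 0.32. Base excision then had 2 higher and 9 lower, with a median of -0.83, and nucleotide excision 5 higher and 6 lower. These comparisons share the untreated or treated libraries with the interferon comparisons.

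**Figure D2:**
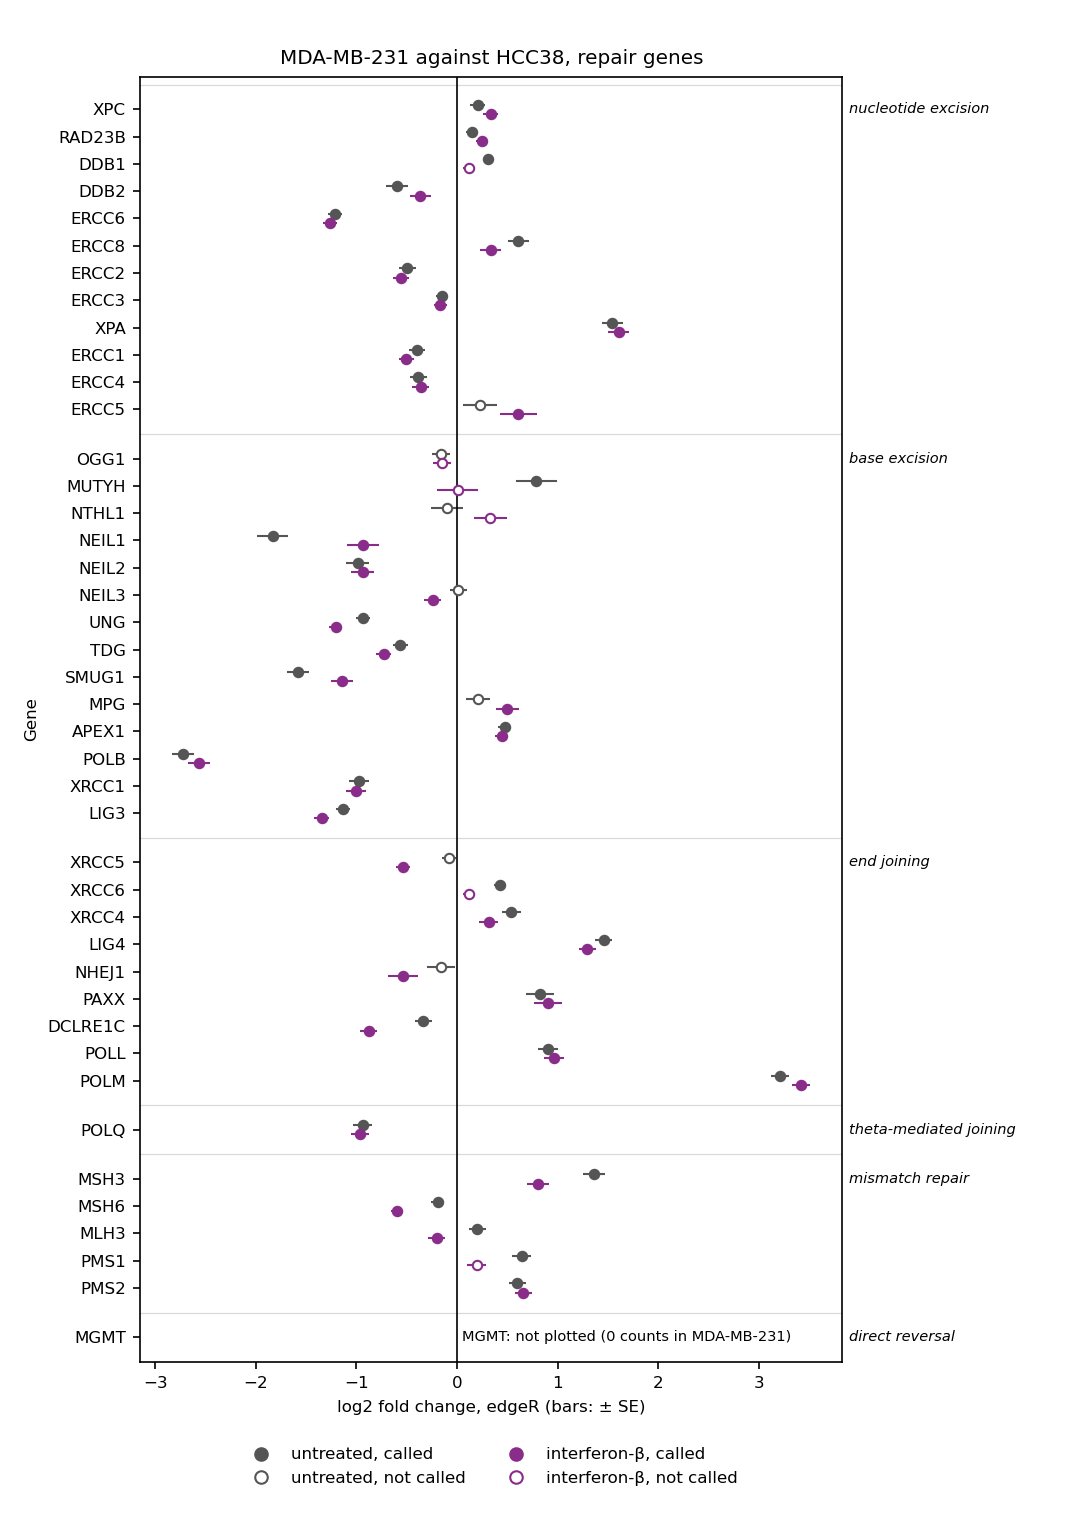
Log2 difference of MDA-MB-231 against HCC38 (x axis, edgeR estimate, bars ± SE) for each repair gene except MGMT, without treatment (grey) and after interferon-β (purple), with filled points for an adjusted p under 0.05. POLM lies farthest to the right at 3.21 and 3.42, POLB farthest to the left at -2.72 and -2.56, and most base excision genes lie left of 0.

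MGMT, the methyltransferase that takes alkyl groups off guanine, was counted in one line only. This gene (ENSG00000170430, chr10:129467190-129770983, plus strand) had 15.8, 14.5 and 14.0 CPM in the untreated HCC38 libraries and 11.2, 13.4 and 13.4 CPM in the treated ones, from 300.0 to 539 reads per library. All 6 MDA-MB-231 libraries had 0 reads, and its FPKM was listed at 0 there too. Set against a floor of 3 counts over the 3 libraries of a group (0.0292 CPM untreated, 0.0288 CPM treated), the level was at least 507-fold lower in untreated and at least 440-fold lower in treated MDA-MB-231. This floor covers counting error only. In HCC38 the treated libraries lay below the untreated ones without overlap, but the change of -0.22 ± 0.12 on the log2 scale missed the threshold (edgeR adjusted p = 0.288).

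In the end joining route, the largest contrast between the lines was POLM, the gene of polymerase mu, which fills gaps at joined ends (ENSG00000122678, chr7:44072062-44082530, minus strand). Its CPM was 6.19, 6.57 and 5.97 in untreated HCC38 and 66.8, 62.5 and 51.1 in untreated MDA-MB-231. Every MDA-MB-231 library lay above every HCC38 library by a wide margin, also after treatment, with 5.92, 6.03 and 5.33 against 66.5, 52.8 and 60.4. The log2 difference was 3.21 ± 0.09 untreated and 3.42 ± 0.09 treated (9.24-fold and 10.7-fold; edgeR adjusted p = 2.02e-17 and 1.28e-17). POLL, the sister polymerase lambda, was higher in MDA-MB-231 as well, by 0.91 ± 0.10 and 0.96 ± 0.10 on the log2 scale, with 16.5, 13.6 and 12.6 CPM in untreated HCC38 against 29.5, 26.9 and 24.9. LIG4, the ligase that seals the joined ends (ENSG00000174405, chr13:108207439-108218368, minus strand), had 21.3, 20.9 and 20.2 CPM in untreated HCC38 and 53.1, 55.2 and 62.1 in untreated MDA-MB-231, again with no overlap (log2 difference 1.46 ± 0.09, edgeR adjusted p = 2.84e-12). In treated HCC38 the values were 21.4, 20.7 and 25.0, against 57.0, 56.8 and 52.1 in treated MDA-MB-231, a difference of 1.30 ± 0.09. Its scaffold partner XRCC4 differed less, by 0.54 ± 0.09 untreated and 0.32 ± 0.09 treated (not called without MDA-MB-231 interferon-β replicate 1, edgeR adjusted p = 0.0763), and PAXX, which helps Ku hold the ends, by 0.82 ± 0.14 and 0.91 ± 0.14. Neither POLM, POLL, LIG4, XRCC4 nor PAXX passed the test for interferon-β in either line, with estimates from -0.23 (PAXX in HCC38) to 0.22 (POLL in MDA-MB-231).

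**Figure D3:**
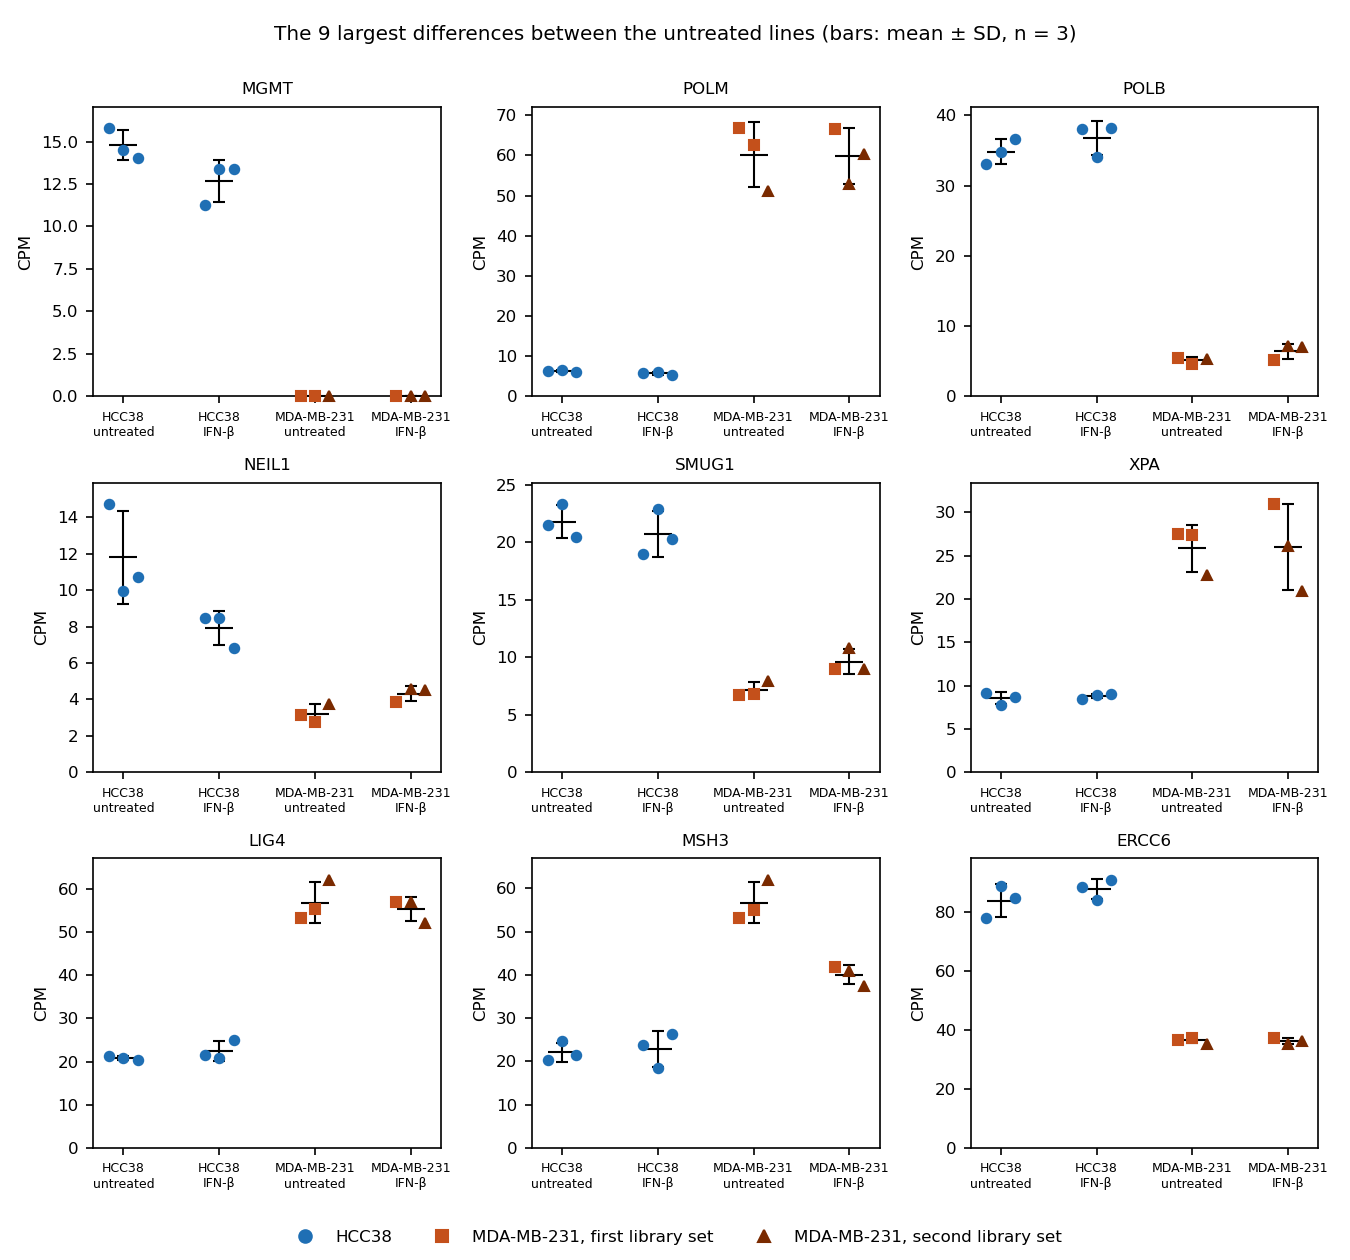
CPM (y axis) of the 9 repair genes with the largest differences between the untreated lines, one point per library, for HCC38 (blue circles) and the first (squares) and second (triangles) library sets of MDA-MB-231, with bars at the mean ± SD of 3 libraries. MGMT is at 0 in all 6 MDA-MB-231 libraries, and for POLM, POLB, SMUG1, XPA, LIG4, MSH3 and ERCC6 no library of one line reaches the range of the other; NEIL1 shows the same with a smaller gap after treatment.

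The Ku subunits, which bind broken ends first, fell after interferon-β in MDA-MB-231 and not measurably in HCC38. XRCC5, or Ku80 (ENSG00000079246, chr2:216107464-216206303, plus strand), had 693, 691 and 874 CPM in untreated MDA-MB-231 and 551, 573 and 560.1 after treatment. The groups did not overlap, and untreated replicate 3 was the highest library. The change was -0.48 ± 0.07 (edgeR adjusted p = 8.31e-05), with -0.33 within the first library set and -0.63 within the second. HCC38 had 756, 839 and 827 CPM untreated and 794, 739 and 855 treated, which overlap (change -0.02 ± 0.07, edgeR adjusted p = 0.907). XRCC6, or Ku70 (ENSG00000196419, chr22:41621163-41664048, plus strand), went from 808, 806 and 946 CPM to 700.0, 719.7 and 712 in MDA-MB-231, again without overlap, a change of -0.30 ± 0.06 (edgeR adjusted p = 0.000886; -0.21 and -0.40 within the sets). In HCC38 it stayed between 627 and 655 CPM in all 6 libraries. The responses of the lines differed by -0.46 ± 0.10 for XRCC5 and -0.31 ± 0.08 for XRCC6 (edgeR adjusted p = 0.00541 and 0.0168). Without MDA-MB-231 untreated replicate 3, XRCC5 kept its call in that line, XRCC6 had -0.21 (edgeR adjusted p = 0.106), and the differences were -0.31 and -0.22 (adjusted p = 0.111 and 0.196). XRCC6 has near-identical copies elsewhere in the genome, so its counts depend on how shared reads were assigned.

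DCLRE1C, the gene of the Artemis nuclease that trims ends before joining (ENSG00000152457, chr10:14897359-14954432, minus strand), moved in opposite directions in the counts of the lines. In HCC38 it went from 37.8, 39.6 and 41.6 CPM to 50.2, 43.4 and 52.3, all treated libraries lying above all untreated ones (change 0.29 ± 0.08, edgeR adjusted p = 0.0206). In MDA-MB-231 it went from 29.0, 27.9 and 35.2 to 24.9, 28.5 and 28.4, ranges that overlap between sets but not within either (change -0.25 ± 0.09, edgeR adjusted p = 0.0412). The difference of the responses was -0.55 ± 0.12 (edgeR adjusted p = 0.00457), and -0.49 without MDA-MB-231 untreated replicate 3 (adjusted p = 0.0659). The HCC38 call was lost without untreated replicate 1 or 2 or interferon-β replicate 1 or 3 of that line (edgeR adjusted p from 0.0599 to 0.0941), and the MDA-MB-231 call without any of its 6 libraries or HCC38 untreated replicate 3 (adjusted p from 0.0508 to 0.443). The deposited FPKM did not follow the counts: they were 9.32, 20.0 and 9.58 in untreated and 10.9, 11.3 and 13.4 in treated HCC38, and the limma change on log2(FPKM + 1) was -0.04 there. DCLRE1C overlaps SUV39H2 on the opposite strand, and whether counting used the strand is not given in the sources used here.

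NHEJ1, the XLF factor that bridges ends beside XRCC4 (ENSG00000187736, chr2:219069357-219160865, minus strand), had 7.50, 8.23 and 7.66 CPM in untreated and 4.73, 4.68 and 4.14 in treated MDA-MB-231, with no overlap. It fell by 41.4% (-0.77 ± 0.15 on the log2 scale, edgeR adjusted p = 0.00105), the largest drop among the repair genes called in that line. The HCC38 values were 7.23, 9.48 and 9.16 untreated and 5.47, 6.53 and 7.80 treated, which overlap, and the change of -0.39 ± 0.14 missed the threshold (edgeR adjusted p = 0.093); the difference between the lines was -0.38 ± 0.21 (adjusted p = 0.25). Without MDA-MB-231 untreated replicate 3 the change was -0.74 (edgeR adjusted p = 0.0546). NHEJ1 is an uncertain count, since its reads were few for its FPKM, and the FPKM of 28.0, 19.5 and 10.1 untreated and 10.8, 12.4 and 10.5 treated overlap.

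POLQ, the gene of polymerase theta, which joins resected ends (ENSG00000051341, chr3:121431431-121545988, minus strand), rose after interferon-β in both lines. HCC38 had 43.7, 50.9 and 45.7 CPM untreated and 64.5, 60.5 and 67.2 treated. Each treated library lay above each untreated one. The change was 0.45 ± 0.09, 1.37-fold, with an edgeR adjusted p = 0.00133, and no left-out library ended the call. MDA-MB-231 had 19.8, 20.6 and 28.4 CPM untreated and 23.8, 45.6 and 40.1 treated, ranges that overlap across the library sets, the first being lower, but not within a set. The change was 0.42 ± 0.10 (edgeR adjusted p = 0.00317), with 0.24 within the first set and 0.59 within the second. Without untreated replicate 3 it was 0.24 (adjusted p = 0.317). The responses differed by -0.03 ± 0.13 (edgeR adjusted p = 0.955; 95% interval -0.28 to 0.22), so the interval still allows a modest difference in either direction. POLQ was lower in MDA-MB-231 than in HCC38, with log2 differences of -0.94 ± 0.09 untreated and -0.97 ± 0.09 treated (edgeR adjusted p = 7.49e-09 and 3.69e-09). On FPKM neither rise passed limma's test.

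Most mismatch repair genes fell after interferon-β in MDA-MB-231, and none was called in HCC38. In MDA-MB-231, 4 of the 5 genes were called lower: MSH3 and MSH6, the MutS homologues that recognise loops and mispairs, and MLH3 and PMS1, MutL homologues that act downstream of recognition. PMS2, the MutL homologue that nicks the strand to be removed, was not called. In HCC38, 0 of 5 were called (0 at an unadjusted p under 0.05 in edgeR, 0 by DESeq2 and 0 by limma on FPKM), and all 5 estimates were above 0. The response differed between the lines for the 4 genes that fell. With library totals as the scaling 3 fell in MDA-MB-231 and 1 difference was called, and on FPKM 1 and 1.

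MSH3 (ENSG00000113318, chr5:80654652-80876815, plus strand) showed the largest drop of the 4. It had 53.0, 55.0 and 62.0 CPM in untreated MDA-MB-231 and 41.7, 40.9 and 37.5 after treatment, with no overlap, and in HCC38 20.4, 24.6 and 21.4 CPM untreated and 23.9, 18.4 and 26.3 treated, which overlap. The change was -0.52 ± 0.11 in MDA-MB-231 (edgeR adjusted p = 0.00185) and 0.04 ± 0.11 in HCC38 (adjusted p = 0.877), a difference of -0.56 ± 0.16 (adjusted p = 0.0251). Its baseline differed too: MSH3 was 2.57-fold higher in untreated MDA-MB-231 (log2 difference 1.36 ± 0.11) and 1.75-fold higher in treated cells (0.80 ± 0.11). MSH6 (ENSG00000116062, chr2:47695530-47810063, plus strand) had 177, 184 and 208 CPM in untreated MDA-MB-231 and 149, 168 and 161 treated, without overlap, and in HCC38 209, 228 and 225 untreated and 239, 223 and 248 treated, which overlap. Its change was -0.31 ± 0.06 against 0.10 ± 0.06 (edgeR adjusted p = 0.00168 and 0.343), and the difference of -0.41 ± 0.09 (adjusted p = 0.00492) kept its call whichever library was left out. MSH6 overlaps FBXO11 on the opposite strand.

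MLH3 (ENSG00000119684, chr14:75013769-75051532, minus strand) had 38.5, 38.3 and 38.3 CPM in untreated MDA-MB-231, the tightest of these groups, and 30.0, 34.7 and 30.4 after treatment. HCC38 had 31.4, 33.8 and 35.5 untreated and 38.0, 33.1 and 37.6 treated, so every untreated MDA-MB-231 library lay above untreated HCC38, and afterwards 2 of 3 lay below all treated HCC38 libraries. The line difference was called in opposite directions, 0.20 ± 0.08 untreated and -0.20 ± 0.08 treated (edgeR adjusted p = 0.0325 and 0.0338). MLH3 was the single one of the 42 repair genes of which this held, beside 137 of the 18121 genes tested. Each of these MLH3 calls was lost without any of 4 libraries, with edgeR adjusted p up to 0.124 and 0.237. PMS1 (ENSG00000064933, chr2:189784085-189877629, plus strand) went from 44.0, 44.2 and 58.2 CPM to 37.3, 41.4 and 40.1 in MDA-MB-231, without overlap, and from 31.7, 31.3 and 33.2 to 37.2, 28.1 and 35.5 in HCC38, where treated replicate 2 lay below all untreated libraries. The MDA-MB-231 changes were -0.30 ± 0.09 for MLH3 and -0.38 ± 0.10 for PMS1 (edgeR adjusted p = 0.0187 and 0.00636), and the differences from HCC38 -0.41 ± 0.12 and -0.45 ± 0.13 (adjusted p = 0.0324 and 0.033). PMS2 had 27.4, 29.3 and 34.2 CPM untreated and 31.8, 34.5 and 34.8 treated in MDA-MB-231, overlapping (change 0.09 ± 0.08, edgeR adjusted p = 0.503), and has near-identical copies that make its count uncertain.

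Leaving out MDA-MB-231 untreated replicate 3 ended the call of all 4 in that line, with -0.37 for MSH3, -0.28 for MSH6, -0.36 for MLH3 and -0.25 for PMS1 (edgeR adjusted p = 0.175, 0.0684, 0.0972 and 0.331). MLH3 also lost its call without interferon-β replicate 1 or 3 (adjusted p = 0.178 and 0.0607). The difference of the responses was lost without any of 5 libraries for MSH3, 8 for MLH3 and 7 for PMS1, with edgeR adjusted p up to 0.253, 0.119 and 0.326. In the fit with the set term, 11 of 16 proliferation markers also fell in MDA-MB-231 after interferon-β and 0 rose, with a median log2 change of -0.27. Their response was more negative than in HCC38 for 12 of 16. The shares over all genes tested were 11.0% and 6.47%. By library, the summed level of these markers overlapped between the groups, at 3893 to 6285 CPM untreated and 3479 to 4802 CPM treated. Untreated replicate 3 was the highest library. The part of these markers in the drop of the mismatch repair genes was not tested.

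**Figure D4:**
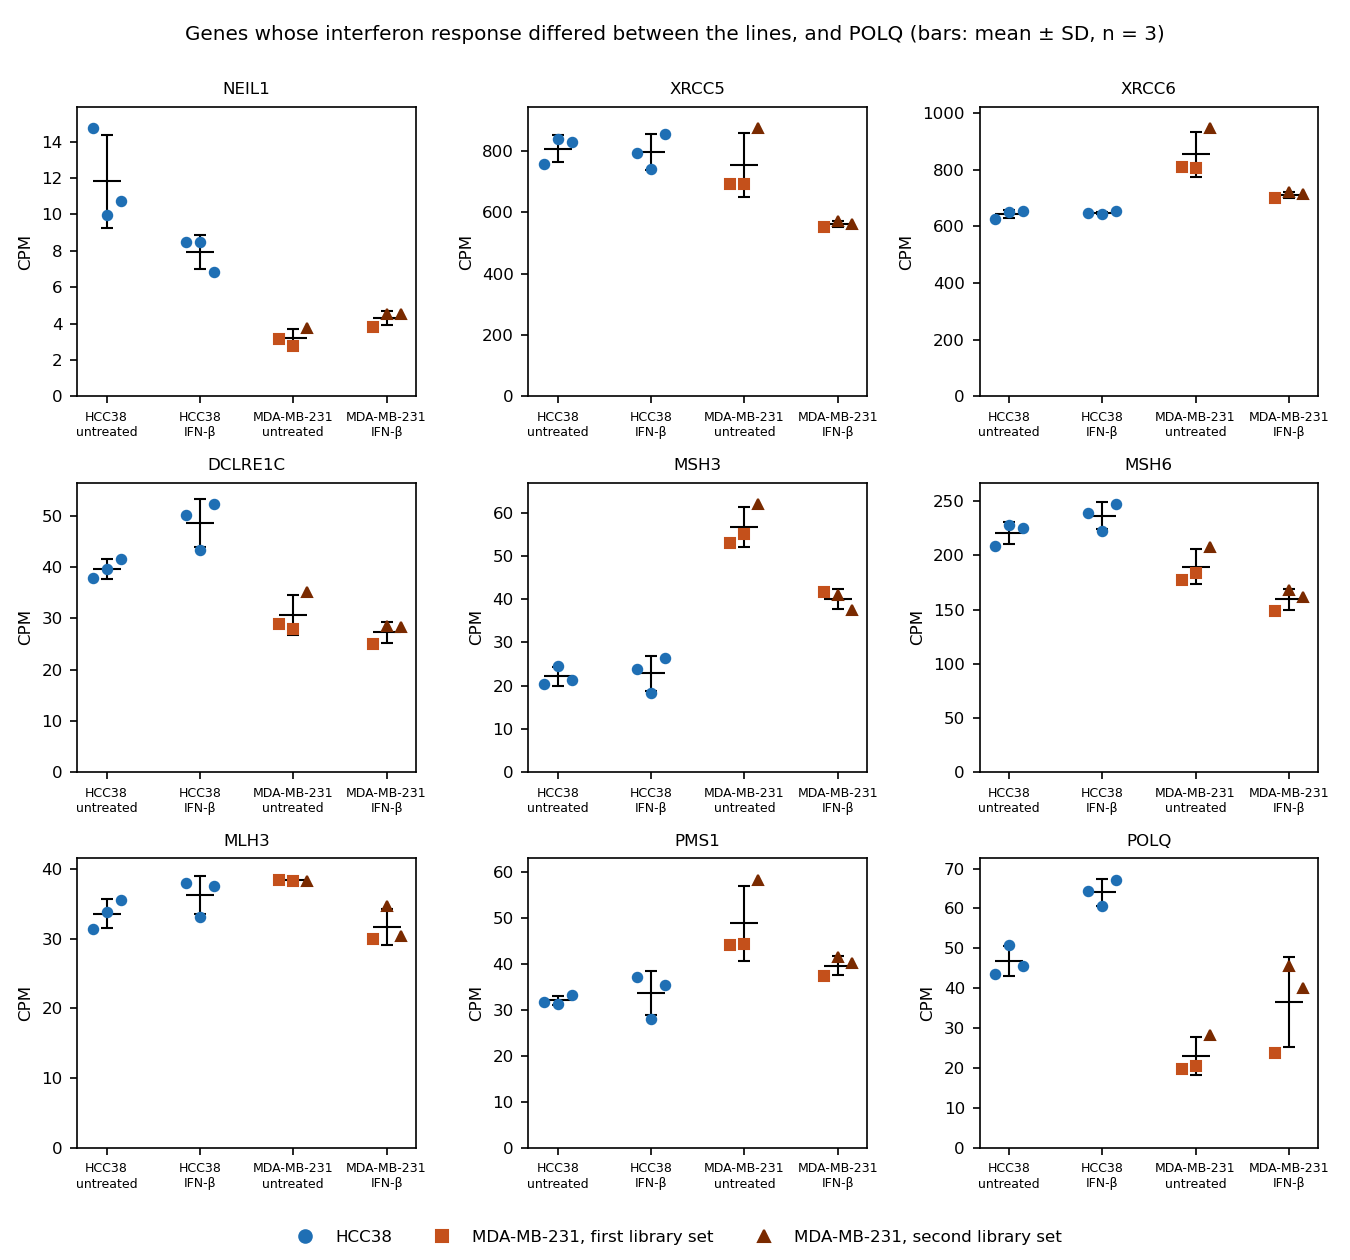
CPM (y axis) of the 8 repair genes whose interferon response differed between the lines, and of POLQ, one point per library, for HCC38 (blue circles) and the first (squares) and second (triangles) library sets of MDA-MB-231, with bars at the mean ± SD of 3 libraries. MSH3, MSH6, MLH3, PMS1, XRCC5 and XRCC6 drop without overlap between the MDA-MB-231 groups and overlap in HCC38, whereas POLQ is higher after treatment in both lines.

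The promoter windows of 3 genes that fell together in MDA-MB-231 are shown with short motifs that cell cycle and interferon factors are known to bind. Each window runs from 250 bases before to 50 bases after a RefSeq start site on GRCh38.p14, on the gene's strand, and 38 of the 42 genes had a window. Capitals mark matches on either strand to the E2F motif in its forms TTTCCCGC and TTTGGCGC, the interferon-stimulated response element GAAANNGAA (ISRE) or the gamma-activated site TTCNNNGAA (GAS). MSH6 (chr2:47782895-47783194, plus strand) holds TTTCCCGC just after the start. XRCC6 (chr22:41621045-41621344, plus strand) holds TTTGGCGC on the other strand at the window's end, printed as GCGCCAAA, and MLH3 (chr14:75051418-75051717, minus strand) holds an ISRE and a GAS match, GAAAGGGAA and TTCACTGAA.
MSH6: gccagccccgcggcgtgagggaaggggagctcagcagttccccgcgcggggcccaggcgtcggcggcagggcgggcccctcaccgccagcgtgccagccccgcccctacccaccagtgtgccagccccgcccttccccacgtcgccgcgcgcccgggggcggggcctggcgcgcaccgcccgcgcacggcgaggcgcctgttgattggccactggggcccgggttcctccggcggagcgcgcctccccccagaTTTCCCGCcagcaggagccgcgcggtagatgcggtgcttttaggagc
XRCC6: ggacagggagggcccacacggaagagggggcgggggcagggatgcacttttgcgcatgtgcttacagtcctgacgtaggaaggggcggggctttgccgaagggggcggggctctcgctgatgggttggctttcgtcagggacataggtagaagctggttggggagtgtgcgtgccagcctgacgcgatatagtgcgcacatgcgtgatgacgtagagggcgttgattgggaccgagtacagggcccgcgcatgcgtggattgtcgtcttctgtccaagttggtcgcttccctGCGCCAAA
MLH3: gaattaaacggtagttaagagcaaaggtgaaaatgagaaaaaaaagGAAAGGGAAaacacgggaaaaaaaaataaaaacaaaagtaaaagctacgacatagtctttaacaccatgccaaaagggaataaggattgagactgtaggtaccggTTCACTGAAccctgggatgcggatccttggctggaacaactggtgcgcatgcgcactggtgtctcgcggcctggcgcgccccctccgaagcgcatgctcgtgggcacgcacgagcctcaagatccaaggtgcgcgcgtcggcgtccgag
One of the E2F forms stood in the windows of 4 repair genes (MSH6, XRCC6, MSH3 and XPC, the last of which was not called after interferon-β) and in 2.27% of 35116 windows of this length, which belong to 2.75% of the 27305 genes with a window. ISRE matches stood in 8.11% and GAS matches in 7.66% of windows, which belong to 9.86% and 9.38% of the genes with a window. Of the 38 repair genes with a window, MLH3 was the one with an ISRE match, and DCLRE1C, DDB2 and MLH3 had a GAS match. Of the genes that fell in MDA-MB-231, PMS1, NHEJ1, DDB1, UNG, LIG3 and APEX1 held none of these motifs in their windows, and XRCC5 had no window. POLQ, NEIL1 and NEIL3, which also moved, held none either. The printed windows are 3 that hold a match. A match describes the letters only, and binding was not measured here.

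In base excision repair, the genes that act after the glycosylase were mostly lower in MDA-MB-231. The largest difference was in POLB, the gap-filling polymerase beta, with 33.0, 34.7 and 36.7 CPM in untreated HCC38 and 5.50, 4.62 and 5.33 in untreated MDA-MB-231, far from overlap. The log2 difference was -2.72 ± 0.11, 6.60-fold lower (edgeR adjusted p = 3.61e-15), and after interferon-β, with 38.1, 34.0 and 38.2 CPM in HCC38 against 5.22, 7.14 and 6.95, it was -2.56 ± 0.11 (adjusted p = 8.27e-15). XRCC1, the scaffold of the late steps, and LIG3, the ligase bound to it, were lower together. XRCC1 had 35.4, 31.3 and 34.9 CPM in untreated HCC38 and 18.7, 15.1 and 17.3 in untreated MDA-MB-231, a difference of -0.98 ± 0.10 (edgeR adjusted p = 9.93e-09). LIG3 (ENSG00000005156, chr17:34980512-35009743, plus strand) had 81.5, 86.6 and 84.4 CPM against 36.8, 37.5 and 40.4, a difference of -1.13 ± 0.07 (edgeR adjusted p = 6.93e-12), and neither gene overlapped between the lines. APEX1, the endonuclease that cuts at the bared site, went the other way: it was higher in untreated MDA-MB-231 by 0.47 ± 0.07, with 125, 128 and 125 CPM against 177, 170.0 and 182.

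Among the glycosylases, the uracil-removing enzymes UNG, SMUG1 and TDG were all lower in MDA-MB-231. SMUG1 (ENSG00000123415, chr12:54121277-54189008, minus strand) had 21.5, 23.3 and 20.5 CPM in untreated HCC38 and 6.75, 6.80 and 7.95 in untreated MDA-MB-231, a difference of -1.58 ± 0.11 (edgeR adjusted p = 3.91e-11). UNG (ENSG00000076248, chr12:109097597-109110992, plus strand) had 81.8, 81.0 and 79.7 CPM against 42.3, 42.3 and 42.9, a difference of -0.93 ± 0.07 (edgeR adjusted p = 7.3e-11), and TDG differed by -0.56 ± 0.08. None of these 3 overlapped between the untreated lines. NEIL2, a glycosylase for oxidised bases, had 17.1, 15.3 and 16.0 CPM against 7.96, 8.53 and 7.71, a difference of -0.99 ± 0.11 (edgeR adjusted p = 1.11e-07; -0.94 ± 0.12 in treated cells). OGG1 and NTHL1, which remove oxidised guanine and pyrimidines, were not called between the lines in either condition, with estimates from -0.16 to 0.33. MPG, which removes alkylated purines, passed the test in treated cells (0.50) and not in untreated cells (0.21). MUTYH, which removes adenine opposite oxidised guanine, passed it in untreated cells (0.79) and not in treated cells (0.01). Neither gene's line difference changed past the test with treatment (edgeR adjusted p = 0.278 and 0.0812). The count of MUTYH is uncertain, at 42 to 158 reads per library, far below what its FPKM implied. Its mean FPKM was 14.1 in untreated HCC38 and 13.5 in untreated MDA-MB-231.

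In its interferon response the base excision route was mixed. NEIL1, a glycosylase for oxidised bases (ENSG00000140398, chr15:75346955-75357115, plus strand), had 14.7, 9.97 and 10.7 CPM in untreated and 8.47, 8.47 and 6.83 in treated HCC38, with no overlap. It fell by 32.8% (-0.57 ± 0.14 on the log2 scale, edgeR adjusted p = 0.0133), a call lost without HCC38 untreated replicate 1 (-0.38, adjusted p = 0.115) or interferon-β replicate 3 (-0.48, adjusted p = 0.065). MDA-MB-231 values were 3.14, 2.74 and 3.76 untreated and 3.83, 4.55 and 4.53 treated. All treated libraries lay above all untreated ones, but the change of 0.32 ± 0.17 missed the threshold (edgeR adjusted p = 0.199). The difference of the responses was 0.90 ± 0.23 (edgeR adjusted p = 0.0133), the largest of the 42 in size. Without MDA-MB-231 untreated replicate 3 it was 0.95 (adjusted p = 0.0717). The gap between the lines was -1.83 ± 0.16 untreated and -0.94 ± 0.16 treated. NEIL1 overlaps MAN2C1 on the opposite strand. NEIL3, a glycosylase expressed in dividing cells, rose in HCC38 from 24.0, 25.6 and 23.5 CPM to 33.0, 29.2 and 32.4, without overlap (change 0.37 ± 0.08, edgeR adjusted p = 0.0057), and no left-out library ended the call. The MDA-MB-231 libraries, 21.9, 19.7 and 29.4 untreated and 23.3, 31.6 and 30.1 treated, overlapped (change 0.11 ± 0.09, adjusted p = 0.384), and the difference of -0.25 ± 0.12 was not called (adjusted p = 0.179).

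SMUG1 rose in MDA-MB-231 from 6.75, 6.80 and 7.95 CPM to 8.99, 10.8 and 9.00, with no overlap between the groups (change 0.36 ± 0.12, edgeR adjusted p = 0.0322). UNG fell in the same libraries, from 42.3, 42.3 and 42.9 to 35.0, 32.5 and 32.1 (change -0.34 ± 0.07, edgeR adjusted p = 0.00152), also with no overlap, so the pair of uracil glycosylases moved apart. LIG3 fell from 36.8, 37.5 and 40.4 to 31.4, 32.6 and 28.9 (-0.32 ± 0.07, edgeR adjusted p = 0.00377), while its partner XRCC1 was at 0.17 ± 0.10 and not called. APEX1 fell from 177, 170.0 and 182 to 166, 136 and 145 (-0.22 ± 0.07, edgeR adjusted p = 0.027). In HCC38 none of these 4 called genes passed the test, with estimates from -0.19 for APEX1 to -0.07 for UNG, and none of the differences of the responses was called. Without MDA-MB-231 untreated replicate 3, UNG was at -0.28, LIG3 at -0.25, SMUG1 at 0.41 and APEX1 at -0.07 (edgeR adjusted p = 0.115, 0.193, 0.181 and 0.74). APEX1 was also lost without interferon-β replicate 2 or 3, and SMUG1 without untreated replicate 1 or 2 or interferon-β replicate 1 or 2 (adjusted p from 0.0581 to 0.198). Within the library sets APEX1 was at -0.07 and -0.37.

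Interferon-β moved 1 of the 12 nucleotide excision genes in MDA-MB-231 and 0 in HCC38, beside 22.6% and 10.6% of all genes tested. For the difference of the responses that share was 12.2%. With 12 genes, counts this small do not set the route apart from all genes. In HCC38, 0 of 12 genes were called by edgeR (2 lower at an unadjusted p under 0.05; 1 lower by DESeq2, 0 by limma on FPKM), and 0 of 12 differed in response (1 unadjusted; 1 by DESeq2, 0 by limma). DDB1, the adaptor that brings a ubiquitin ligase to damaged chromatin (ENSG00000167986, chr11:61299451-61342596, minus strand), was the single gene called, in MDA-MB-231. It had 536, 527 and 501 CPM untreated and 429, 363 and 378 treated, far apart, and in HCC38 418, 415 and 405 untreated and 353, 378 and 365 treated, also without overlap. The change was -0.37 ± 0.06 in MDA-MB-231 (edgeR adjusted p = 0.000122), a call that no left-out library ended, and -0.18 ± 0.06 in HCC38, just short of the threshold (adjusted p = 0.0512); the difference was -0.20 ± 0.08 (adjusted p = 0.122). Its damage-sensing partner DDB2 had 13.7, 13.2 and 10.1 CPM in untreated and 14.2, 14.0 and 15.1 in treated MDA-MB-231, a change of 0.30 ± 0.11 that missed the threshold (edgeR adjusted p = 0.0596).

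Between the lines, the nucleotide excision genes that differed most worked at different steps. XPA, which checks the damage and positions the nucleases (ENSG00000136936, chr9:97674909-97697340, minus strand), had 9.17, 7.76 and 8.65 CPM in untreated HCC38 and 27.5, 27.3 and 22.8 in untreated MDA-MB-231, a difference of 1.54 ± 0.10 (edgeR adjusted p = 2.41e-11), and 1.61 ± 0.10 after treatment. ERCC6, the factor that detects stalled polymerase (ENSG00000225830, chr10:49454168-49539538, minus strand), was lower, with 78.1, 89.1 and 84.9 CPM against 36.8, 37.3 and 35.5 and a difference of -1.21 ± 0.07 (edgeR adjusted p = 1.73e-12; -1.27 ± 0.07 treated). Its partner in transcription-coupled repair, ERCC8, was higher instead, with 14.7, 15.9 and 17.9 CPM against 24.8, 24.1 and 25.3 (0.61 ± 0.10, edgeR adjusted p = 2.01e-05). None of these overlapped between the untreated lines. Of the genes of genome-wide damage recognition, XPC (0.21), RAD23B (0.15) and DDB1 (0.31) were higher and DDB2 (-0.60) was lower. The TFIIH helicases ERCC2 and ERCC3 were lower (log2 differences -0.50 and -0.15), as were the subunits of one incision nuclease, ERCC1 and ERCC4 (-0.40 and -0.39). The smallest of these calls were lost on leaving out 1 library: XPC without HCC38 untreated replicate 2 (edgeR adjusted p = 0.0931), RAD23B without HCC38 untreated replicate 1 or MDA-MB-231 untreated replicate 2 or 3 (edgeR adjusted p up to 0.392), and ERCC3 without any of 7 libraries (adjusted p up to 0.151). ERCC5, the other incision nuclease, had 2.01 to 4.24 CPM in all 12 libraries, and its count is uncertain because it was far below what its FPKM implied.

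The library sets of MDA-MB-231 differed in some of the same genes. Against a background of 23.7% called, 10.8% higher and 12.9% lower, 5 repair genes were higher in the second set (MUTYH, POLQ, NEIL3, PMS1 and DCLRE1C) and 4 lower (MPG, ERCC1, XPA and POLM). POLQ differed by 0.67 ± 0.10 between the sets and NEIL3 by 0.45 ± 0.09 (edgeR adjusted p = 3.92e-05 and 0.000766), while MPG differed by -0.74 ± 0.12 and ERCC1 by -0.49 ± 0.08 (adjusted p = 0.000186 and 0.000112). Of 16 proliferation markers 15 were higher in the second set, with a median of 0.53. Their summed level was 3942, 3893 and 6285 CPM in untreated MDA-MB-231 and 3479, 4802 and 4666 CPM in treated cells, and 3637 to 4132 CPM in the 6 HCC38 libraries. Untreated replicate 3 was the highest library, and its part in the repair gene calls that rest on it was not tested.

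**Figure D5:**
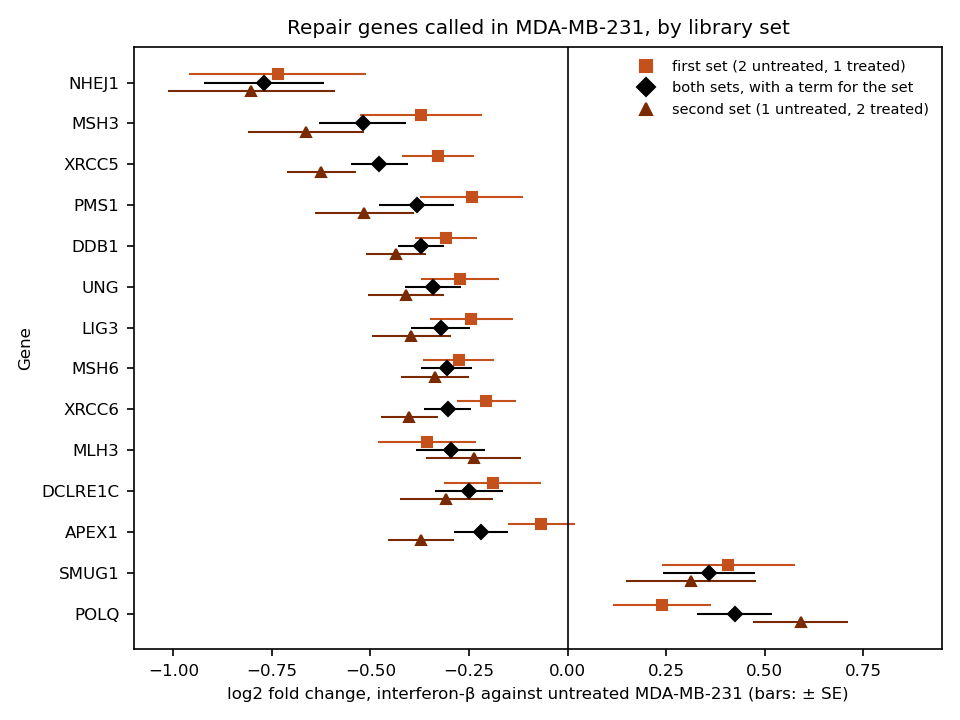
Log2 fold change after interferon-β in MDA-MB-231 (x axis, edgeR estimate, bars ± SE) of the 14 called repair genes, within the first library set (squares), within the second (triangles) and over both with a term for the set (diamonds). The genes were chosen by their call over both sets, each of which has 1 library in one arm, and the estimates run from NHEJ1 at -0.74 and -0.80 to POLQ at 0.24 and 0.59, with APEX1 at -0.07 and -0.37.

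On a per-length scale, the Ku genes were the most abundant repair transcripts in every group. Mean FPKM in untreated HCC38 was 324 ± 7.49 (SD, n = 3) for XRCC6, 236 ± 9.49 for XRCC5, 109 ± 2.11 for APEX1, 92.6 ± 1.79 for DDB1 and 77.2 ± 2.08 for RAD23B, and no neighbours among these 5 overlapped. Untreated MDA-MB-231 had the same order, with 415 ± 26.2, 211 ± 22.5, 155 ± 8.09, 114 ± 6.18 and 81.9 ± 5.48; after treatment RAD23B and DDB1 changed places, at 91.9 ± 0.749 and 88.1 ± 8.01, and overlapped. At the other end, POLM was the lowest of the 42 in untreated HCC38 (2.73 ± 0.459) and far up the order in untreated MDA-MB-231 (35.3 ± 5.31). The lowest in untreated MDA-MB-231 after MGMT were NEIL1 (2.15 ± 0.631), POLQ (2.36 ± 0.622) and NEIL2 (3.44 ± 0.292), of which NEIL1 and POLQ overlapped. Most genes between these ends overlapped with a neighbour: 9 of 41 steps in the order were free of overlap in untreated HCC38 and 10 in untreated MDA-MB-231.

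Genes that work with these routes were taken from a second list of 56, of which 53 were tested. After interferon-β 4 rose and 2 fell in HCC38, 11.3% of the 53 against 10.6% of all genes tested. In MDA-MB-231 4 rose and 15 fell, 35.8% against 22.6%, and the response differed for 18, 34.0% against 12.2%, of which 15 were more negative in MDA-MB-231. PRKDC, the kinase that Ku recruits to broken ends, had 762, 804 and 1205 CPM in untreated MDA-MB-231 and 503, 488 and 434 after treatment, with no overlap. Untreated replicate 3 was again the highest library. PRKDC changed by -1.01 ± 0.11 (edgeR adjusted p = 8.19e-07), against -0.29 ± 0.10 in HCC38 (adjusted p = 0.0824). The Ku genes and PRKDC, which together form the DNA-dependent protein kinase, thus all fell in MDA-MB-231. EXO1, the nuclease of mismatch repair, rose in HCC38 (0.30 ± 0.08, edgeR adjusted p = 0.0149), and its response differed by -0.65 ± 0.11 (adjusted p = 0.000994). Of the 11 tested genes around mismatch repair, which also serve replication, 5 fell in MDA-MB-231 and 0 rose, and 2 rose in HCC38, the other being PCNA, the replication clamp (0.24 ± 0.06). PARP3, a sensor of strand breaks, rose in both lines, by 0.32 and 0.51, and ALKBH2, which reverses alkylation as MGMT does by another chemistry, rose in MDA-MB-231 by 0.56. Between the untreated lines 27 were higher and 18 lower in MDA-MB-231, 84.9% against 79.8% of all genes. The related base excision genes were 7 higher and 4 lower of 11, with a median log2 difference of 0.77 (0.60 in treated cells). Those of end joining were 6 higher and 3 lower of 13, with a median of 0.16 (-0.16 in treated cells). In untreated cells the medians were 0.40 for nucleotide excision, -0.11 for mismatch repair and -0.25 for direct reversal. APEX2, the minor base excision endonuclease, was higher by 2.21 and RPA1, of the single-strand binding complex, by 1.80, whereas PCNA and PARP1, the main break sensor, were lower (log2 differences -1.57 and -1.19).

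Some of these counts carry a limit from the annotation. Of the 42 genes 34 overlapped another annotated gene, 17 of them one above 1 CPM, in each case on the opposite strand. Genes of this kind on which results turn include DDB1 (TKFC), LIG3 (RFFL and CCT6B), APEX1 (PIP4P1), SMUG1 (LINC02381), PMS1 (ORMDL1) and XRCC1 (PINLYP), besides those named above. The library kit keeps the strand, but the counting setting is not given in the sources used here, so reads of such neighbours may not have been told apart. ERCC5, MUTYH and NHEJ1 had fewer counts than 0.5 of what their FPKM and coding length imply.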

How the data were processed

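Total RNA of 12 libraries, 3 for each combination of line and treatment, was extracted with an RNeasy kit and made into strand-preserving libraries with NEBNext Ultra II Directional, per the labels. The authors deposited, per library, counts (whole numbers of reads per gene, not normalized) and FPKM (estimates scaled for length and depth). Cufflinks 2.2.1, HTSeq 2.0.2, fastp 0.23.2 and the build GRCh38.p13 were used per the submitters' processing notes. Not given in the sources used here are the aligner, the annotation and the counting settings for strand and overlaps.

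CPM are the deposited counts divided by an effective library size and scaled in the usual way. That size is the library's count over the genes left by the low-count filter, multiplied by its TMM factor (0.947 to 1.03). Fold changes and adjusted p-values come from the quasi-likelihood test of edgeR 4.0.16 (R 4.3.3) on the deposited counts of all 12 libraries, with a coefficient per group and a term for the MDA-MB-231 library set (0.5 or -0.5, and 0 in HCC38), TMM scaling, filterByExpr at a minimum count of 10 and total of 15, and Benjamini-Hochberg adjustment over the 18121 genes left. Genes at an adjusted p under 0.05 were called. The code was tested on simulated data.

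The depth, total counts of 26660038 to 43588773, sets the precision: MGMT in HCC38, at 11.2 to 15.8 CPM, rested on 300.0 to 539 reads. Gene coordinates were read from the FPKM tables and shifted to count from 1, and promoter windows are from RefSeq. Alternatives were no set term, the replicate number as a block, other scalings, no filter, DESeq2 1.42.0, limma 3.58.1 on log2(FPKM + 1) or log2(FPKM + 0.1) over genes with FPKM of at least 1 in 3 libraries, fits within a line or a set, and leaving out each library. Values in every library were given for called genes by size of change, for the 12 largest line differences, for MGMT and POLQ, and for complex partners; of related genes, up to 4 per direction. APEX1, PAXX and some smaller line differences were added after their values were seen. The 42 genes, the related genes and the tests were chosen with earlier results of these data known. Some marker and neighbouring genes are not reported here.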

Additional observations from a re-analysis of the deposited data

Results flagged for a closer look

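The results below drew a closer look because the interferon response differed between the lines in the fit across all genes (the interaction term of edgeR's quasi-likelihood test, adjusted p under 0.05). Values are the log2 response of MDA-MB-231 minus that of HCC38, with SE. Among the repair genes the difference was positive for NEIL1, at 0.90 ± 0.23. It was negative for MSH3 (-0.56 ± 0.16), DCLRE1C (-0.55 ± 0.12), XRCC5 (-0.46 ± 0.10), PMS1 (-0.45 ± 0.13), MSH6 (-0.41 ± 0.09), MLH3 (-0.41 ± 0.12) and XRCC6 (-0.31 ± 0.08). Only MSH6 kept its call without MDA-MB-231 untreated replicate 3.

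Among the genes that work with these routes it was positive for ALKBH2, a direct reversal enzyme (0.64 ± 0.16), RBX1, a ubiquitin ligase subunit (0.64 ± 0.16), and GTF2H5, a TFIIH subunit (0.52 ± 0.16). It was negative for PRKDC (-0.72 ± 0.15), the nuclease EXO1 (-0.65 ± 0.11), GTF2H2, another TFIIH subunit (-0.57 ± 0.16), and RIF1, which limits the resection of broken ends (-0.47 ± 0.12). In GTF2H5 and EXO1 the HCC38 response passed the test by itself (-0.40 ± 0.11 and 0.30 ± 0.08, edgeR adjusted p = 0.0288 and 0.0149). The MDA-MB-231 response passed it in ALKBH2 (0.56), RBX1 (0.37), PRKDC (-1.01), GTF2H2 (-0.58), RIF1 (-0.31) and EXO1 (-0.34), which was thus called in opposite directions in the lines. Whether the calls of these related genes hold without MDA-MB-231 untreated replicate 3 was not examined.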

How the results depend on the processing

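The counts of genes called in the interferon comparisons moved with the model, and those between the lines did not move by more than 1.5 times. Repair genes called for HCC38, MDA-MB-231 and the difference of the responses were 4, 14 and 8. Without the set term they were 0 (by edgeR, with 9 before adjustment, 3 of them higher, while DESeq2 and limma with the term called 5 and 1), 9 and 1, with 659, 2272 and 637 of all genes, beside 1913, 4095 and 2218. With limma on log2(FPKM + 1) they were 1, 7 and 2, with 894, 1908 and 642 of all genes, and on log2(FPKM + 0.1) 1, 7 and 2, with 734, 1812 and 547. Within the first library set 2 repair genes were called for MDA-MB-231 and 1 for the difference, with 1176 and 802 of all genes. The causes were not tested, except that a set holds fewer libraries.

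Leaving out 1 library at a time gave 3 to 6 repair genes for HCC38, 2 to 15 for MDA-MB-231, 1 to 10 for the difference, 32 to 35 between the untreated and 29 to 39 between the treated lines. For all genes the ranges were 1209 to 2225, 1177 to 4415, 821 to 2899, 12310 to 14843 and 12223 to 14715. DCLRE1C turned direction on FPKM: its HCC38 change was -0.0388 and -0.0363, and its difference 0.00808 and 0.00241, with pseudocounts of 1 and 0.1. The cause was not tested. Over the 55 gene results with all their alternatives, 1069 values kept their status, 146 kept direction without the call and 4 turned direction in a called result. Kept status means called in the same direction, or called in neither fit, whichever direction the estimates had.

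Scaling by library totals put 71.4% of the calls of all genes in MDA-MB-231 higher, against 51.3% with TMM, and 69.1% against 47.2% for the difference. On log2(FPKM + 1) 68.8% were higher in HCC38 against 55.0%, and 69.1% and 65.1% in the others. Without the set term 65.7% were higher in HCC38.

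In HCC38, treated and untreated libraries of one replicate number in the titles had correlations of deviations of 0.036, -0.12 and 0.024, which show no pairing. In MDA-MB-231 they were -0.44, 0.14 and -0.39 with the set effect removed and 0.27, -0.26 and 0.25 with it kept. The former are tied to each other by the fit and the latter carry the difference between the sets. Neither can therefore tell whether the numbers pair libraries of MDA-MB-231. With the replicate number as a block, 4, 10 and 5 repair genes were called for HCC38, MDA-MB-231 and the difference of the responses.

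Depth limits the genes of few reads, such as ERCC5, MUTYH and NEIL1 in MDA-MB-231, and no statement about MGMT there goes below the floor of 3 counts. With 3 libraries a group and MDA-MB-231 spread over 2 sets, the untreated second set is 1 library.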
